A study of Mus musculus with 2 samples.

Results

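Foxp2 peaks at the edges of genes were examined in C1.1 cells. This line derives from the tubular epithelium of the mouse kidney, and here it carried a stably selected Foxp2 CRISPR Activation Plasmid, a tool for switching on a gene at its own locus. Foxp2 belongs to the forkhead family, transcription factors that bind DNA through a winged-helix domain and recognise short sequences built around TGTTT. It is best known for its roles in the brain and in lung epithelium. The data were the authors' peaks from 1 Foxp2 chromatin immunoprecipitation (ChIP) library called against 1 input library, both from activated cells. No unactivated cells, no control antibody and no replicate ChIP were compared, so the values below carry counting intervals and no test between conditions. The deposited peaks had numbers up to 983, of which 944 were present, and the lowest number present was 9.

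A peak was included when its summit lay at most 2 kb from the start or end coordinate of any RefSeq gene of GRCm38.p6 (the mm10 build), which held for 218 of the 944 peaks. The rule used position only and no fold value. It counted the gene that owns the nearest boundary, so a second gene in reach is named separately. RefSeq promoter and microRNA tables gave the strand of 27866 of 49554 genes on chromosomes 1 to 19 and X (56.2%). For those genes the boundary could be read as the transcription start or the end, and for the others, chromosome 18 included, it could not. The start of a gene carries its promoter, where RNA polymerase and general factors assemble. The end carries the cleavage and polyadenylation site. MicroRNA boundaries are not read in this way, since they lie close to the mature sequences. For the 3 peaks nearest to a microRNA gene, start and end give only the order along the strand.

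Promoter sequence was at hand for 43 summits, those that fell inside a RefSeq promoter window of 300 bp (250 bp before a listed start and 50 bp after it). The windows of the 8 largest folds are shown because they place the summit beside the letters a forkhead factor recognises. One window is given per summit, 5′ to 3′ on the gene's strand. Capitals mark TGTTT and the 7-letter forkhead motifs TGTTTAC or TGTTTAT or TATTTAC or TGTTGAC, on either strand.

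5730596B20Rik, a noncoding gene inside the Hoxa3 locus, chr6:52176905-52177204, plus strand, summit at base 191: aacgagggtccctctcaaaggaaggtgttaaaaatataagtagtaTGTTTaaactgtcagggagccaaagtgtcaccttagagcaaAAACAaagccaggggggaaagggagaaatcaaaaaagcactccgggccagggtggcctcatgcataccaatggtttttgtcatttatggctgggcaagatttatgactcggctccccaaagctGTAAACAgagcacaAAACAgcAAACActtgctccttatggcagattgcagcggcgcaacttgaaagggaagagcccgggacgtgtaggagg

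Gm33215, a noncoding gene, chr3:101650748-101651047, minus strand, summit at base 195: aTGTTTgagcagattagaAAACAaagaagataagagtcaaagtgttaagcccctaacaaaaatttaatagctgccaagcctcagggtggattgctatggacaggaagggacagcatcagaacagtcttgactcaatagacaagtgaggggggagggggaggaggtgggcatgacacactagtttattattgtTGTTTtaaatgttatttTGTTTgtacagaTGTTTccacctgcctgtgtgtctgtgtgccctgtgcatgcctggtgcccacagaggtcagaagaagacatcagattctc

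Btg1, an antiproliferative gene, chr10:96616751-96617050, plus strand, summit at base 51: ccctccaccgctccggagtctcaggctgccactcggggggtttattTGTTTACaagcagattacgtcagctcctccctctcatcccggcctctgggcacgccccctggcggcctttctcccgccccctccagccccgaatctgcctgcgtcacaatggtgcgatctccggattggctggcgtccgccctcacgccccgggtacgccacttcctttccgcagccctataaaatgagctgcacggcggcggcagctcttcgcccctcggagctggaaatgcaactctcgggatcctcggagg

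Prcc, a gene rearranged in papillary renal cell carcinoma, chr3:87885513-87885812, minus strand, summit at base 36: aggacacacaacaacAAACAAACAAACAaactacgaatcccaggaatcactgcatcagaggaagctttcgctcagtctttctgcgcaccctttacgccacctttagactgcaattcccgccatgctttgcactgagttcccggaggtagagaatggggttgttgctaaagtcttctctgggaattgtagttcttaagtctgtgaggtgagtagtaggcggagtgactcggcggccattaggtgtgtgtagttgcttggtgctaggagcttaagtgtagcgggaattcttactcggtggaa

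Tnrc18, at a listed start inside the gene, chr5:142817613-142817912, minus strand, summit at base 80: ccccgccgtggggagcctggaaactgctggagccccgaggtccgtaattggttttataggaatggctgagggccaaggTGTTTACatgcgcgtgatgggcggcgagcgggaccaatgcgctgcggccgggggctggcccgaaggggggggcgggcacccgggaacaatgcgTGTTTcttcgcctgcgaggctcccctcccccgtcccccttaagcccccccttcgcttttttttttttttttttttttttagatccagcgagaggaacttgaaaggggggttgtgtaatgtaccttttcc

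Cdc5l, a splicing factor gene, chr17:45433658-45433957, minus strand, summit at base 80: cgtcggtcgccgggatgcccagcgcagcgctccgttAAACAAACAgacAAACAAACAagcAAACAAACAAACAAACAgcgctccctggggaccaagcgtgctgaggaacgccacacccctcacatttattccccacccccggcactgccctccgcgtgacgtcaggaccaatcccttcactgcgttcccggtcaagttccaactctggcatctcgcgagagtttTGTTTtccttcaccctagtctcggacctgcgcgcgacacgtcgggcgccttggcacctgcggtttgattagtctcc

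Ect2, an exchange factor of cytokinesis, chr3:27153829-27154128, minus strand, summit at base 25: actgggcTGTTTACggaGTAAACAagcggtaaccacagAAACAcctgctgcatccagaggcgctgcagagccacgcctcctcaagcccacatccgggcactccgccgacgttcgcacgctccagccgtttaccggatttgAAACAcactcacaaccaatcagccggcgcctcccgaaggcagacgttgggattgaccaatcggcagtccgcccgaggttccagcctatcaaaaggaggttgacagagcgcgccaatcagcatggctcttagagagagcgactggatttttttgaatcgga

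Gm51739, a noncoding gene, chr1:189778459-189778758, minus strand, summit at base 221: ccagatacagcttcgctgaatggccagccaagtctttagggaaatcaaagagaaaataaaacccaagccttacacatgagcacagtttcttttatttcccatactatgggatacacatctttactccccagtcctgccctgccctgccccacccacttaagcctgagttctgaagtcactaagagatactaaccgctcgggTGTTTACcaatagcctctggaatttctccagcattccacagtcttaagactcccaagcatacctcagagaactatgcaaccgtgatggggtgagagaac

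The summit lay within the capitals TGTTTAC in the Btg1 and Tnrc18 windows. In the Ect2 window it lay 1 base from the second of 2 facing matches, TGTTTAC and its reverse complement. The 7-letter match was 13 bases from the summit at Gm51739 and 19 bases from it at 5730596B20Rik. The Gm33215, Prcc and Cdc5l windows had no 7-letter match and held repeats of the 5-letter core in its place: 5 copies in the Gm33215 window with the summit in 1 of them, 3 in the Prcc window and 9 in the Cdc5l window.

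TGTTT is contained in TGTTTAC and TGTTTAT, so these counts overlap. Matches are exact letters and were not shown to be bound sites. Canonical forkhead letters were more frequent in promoter windows that held a summit than in promoter windows at large. TGTTTAC was found in 16 of 51 such windows (31.4%, 95% Wilson interval 20.3 to 45.0; 51 windows because some summits lay in several) and in 3.67% of all 32619 windows. Any of the 4 seven-letter motifs was found in 37.3% (25.3 to 51.0) against 12.9%, and TGTTT in 76.5% (63.2 to 86.0) against 50.6%. The wider group of 178 windows of starts within 2 kb of a summit includes these 51. TGTTTAC was in 22 of the 178, 12.4% (8.31 to 18.004), above the share of all windows. Of those 22 windows, 16 were among the 51, so this excess rested mostly on the windows that held a summit. TGTTT was at 55.1% (47.7 to 62.2) of the 178, an interval that includes the share of all windows. For the other 7-letter forms the intervals included the share of all windows. TGTTTAT was in 5.88% (2.02 to 15.9) of the windows that held a summit against 4.61%, while TATTTAC (3.06% of all windows) and TGTTGAC (2.51%) were in 0 of 51, with an upper limit of 7.005% each.

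Letters of other factors were searched in the same way, on both strands. ETS-type CCGGAA was in 33.3% (22.0 to 47.0) of the windows that held a summit against 14.997% of all, and the cyclic AMP element TGACGTCA in 9.80% (4.26 to 21.0) against 1.80%. YY1 AAGATGGC was at 7.84% (3.09 to 18.5) against 2.76%. The intervals of the next motifs included the share of all windows: the Sp and KLF box GGGCGG at 49.0% (35.86 to 62.3) against 35.90%, AP-1 TGANTCA at 11.8% against 7.85%, NF-Y CCAAT at 39.2% against 37.6%, the E-box CACGTG at 7.84% against 7.20%, TEAD GGAATG at 11.8% against 14.6%, the TATA box TATAAA at 7.84% against 13.7%, and ZNF143-like ACTACAA at 5.88% against 3.26%. In the wider group of 178 windows, the 51 included, the Sp and KLF box was at 57.3% (49.96 to 64.3) and ETS letters at 21.9% (16.5 to 28.5). The cyclic AMP element was at 5.06% (2.68 to 9.33) there and YY1 at 7.87% (4.74 to 12.8). All of these were above the share of all windows. An excess over all windows was thus not limited to forkhead letters. The NRF1 motif and the tRNA B box GGTTCGA were in 0 of 51 windows (0.978% and 0.917% of all). Base composition also differed between the groups of windows. The median GC content was 55.7% (order-statistic interval 53.3 to 59.0) in windows that held a summit and 53% in all, and the CpG observed-to-expected ratio was 0.812 (0.764 to 0.870) against 0.387. In the 178 windows these medians were 59.0% (56.3 to 61.7) and 0.789 (0.735 to 0.813). How far composition set the ETS, cyclic AMP, YY1 and Sp shares was not tested.

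**Figure D1:**
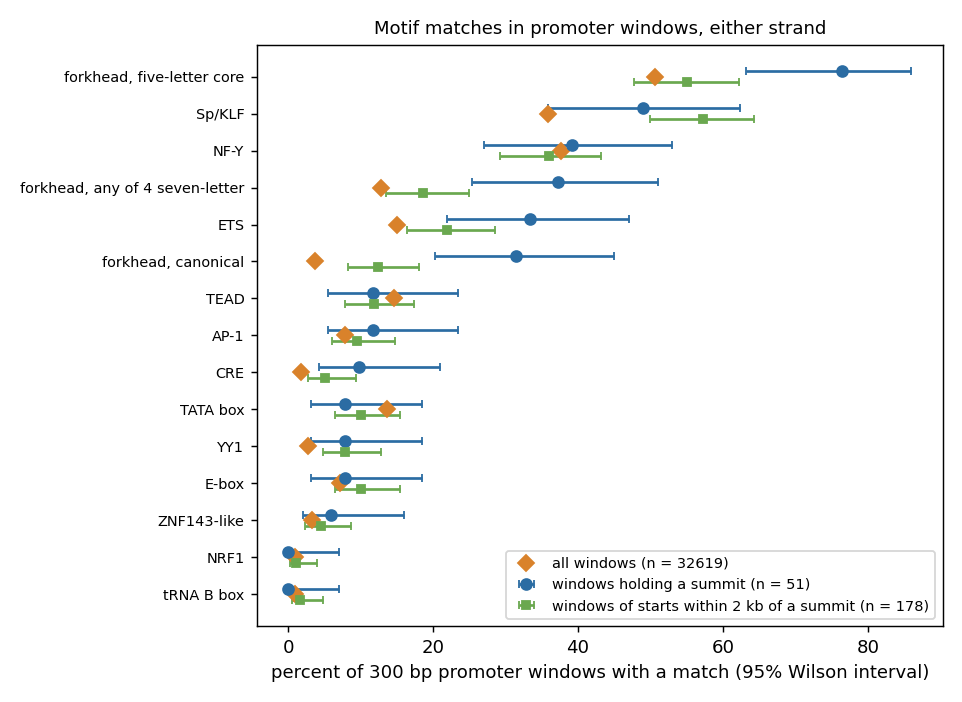
Percent of RefSeq promoter windows (300 bp) with at least 1 match to each motif, on either strand. Circles are the 51 windows that held a Foxp2 summit and squares the 178 windows of starts within 2 kb of one, the 51 included, with 95% Wilson intervals. Diamonds are all 32619 windows. The canonical forkhead motif is at 31.4% in the circles and 3.67% in the diamonds.

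Where a forkhead match was present, it lay close to the summit. Of the 43 summits in promoter windows, 18 had a 7-letter match in the window (41.9%, 28.4 to 56.7), and in 17 of these it lay within 25 bp of the summit, with a median gap of 13 bp (range 0 to 40). For comparison, 2.55% of the bases of all promoter windows lay within 25 bp of such a match, and 39.5% (26.4 to 54.4) of the summits did. TGTTT lay within 25 bp of 24 summits (55.8%, 41.1 to 69.6), against 13.2% of bases.

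Matches were more common at larger folds. A 7-letter match was present at 13 of 23 summits with a fold of at least 5 (56.5%, 36.8 to 74.4) and at 5 of 20 with a lower fold (25%, 11.2 to 46.9), and these intervals overlap. TGTTT anywhere in the window was found at 22 of 23 (95.7%, 79.0 to 99.2) and 13 of 20 (65%, 43.3 to 81.9). Within 50 bp it was at 82.6% (62.9 to 93.0) and 50% (29.9 to 70.1), and within 25 bp at 73.9% (53.5 to 87.5) and 35% (18.1 to 56.7). Within 10 bp it was at 13 of 23 (56.5%, 36.8 to 74.4) and 3 of 20 (15%, 5.24 to 36.0). Only the intervals at 10 bp did not overlap. The median fold was 6.39 (range 4.18 to 16.4) at the 18 summits with a 7-letter match and 4.76 (3.63 to 15.4) at the 25 without. The input background was above its floor at 61.1% and 60.0% of them, so nearly the same share lay above it with and without a match. For TGTTT the background was above the floor at 20 of 35 summits with it in the window (57.1%) and at 6 of 8 without (75%). The 8 summits without TGTTT in their windows had folds from 3.63 to 6.58. Chosen after their values were seen, their genes include Kmt2a, a histone methyltransferase, Rrp15, a ribosome biogenesis factor, and Tcf3, a basic helix-loop-helix factor.

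**Figure D2:**
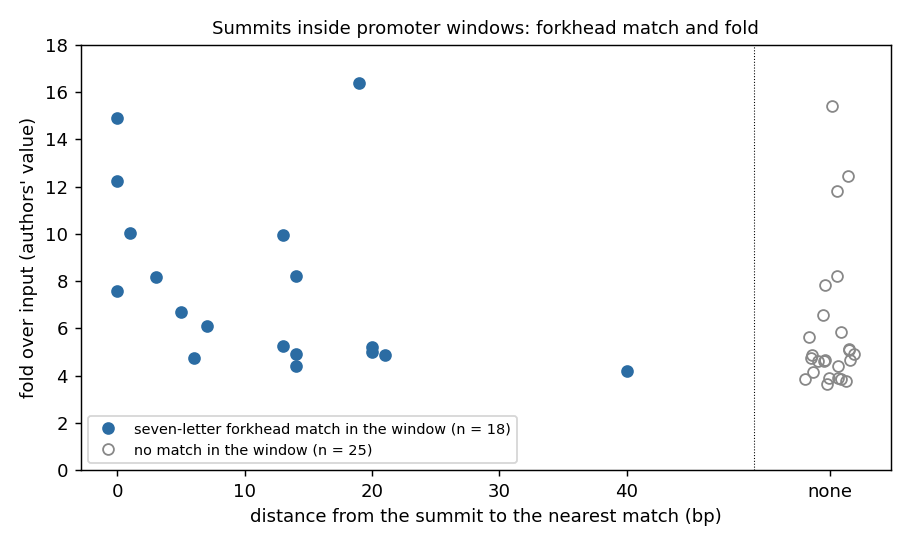
Fold over input (the authors' value) of the 43 summits inside promoter windows against the distance from the summit to the nearest 7-letter forkhead match; open circles at the right are the 25 summits with no match. Filled circles lie within 21 bp of a match except for 1 at 40 bp, and the largest fold at a distance of 0 is 14.9 (Btg1).

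Summits at boundaries made up 23.1% of all summits (95% Wilson interval 20.5 to 25.9), and 11.3% of the bases between the first and last gene of each chromosome lay as near to a boundary. The share of summits was thus 2.05 times the share of bases. Just inside the limit were peaks at 1978 bp from Zfp874b (fold 4.88) and 1989 bp from 4930417H01Rik (5.64), and just outside were peaks at 2008 bp from Gm40934 (4.64) and 2031 bp from Gm30298 (8.15). Boundary peaks were not stronger than the rest. Their median fold over input was 5.06 (order-statistic interval 4.88 to 5.37, range 2.84 to 26.9) and that of the 726 other peaks 5.19 (5.13 to 5.39). Among the 218, 24 had a fold of 10 or more (11.01%, 7.51 to 15.9), against 9.43% of all 944 peaks. Median widths were 265 bp and 269 bp, and the median pileup at the summit was 23 and 24 reads.

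Within the 2 kb, peaks lay at starts much more than at ends. Of the 146 peaks whose nearest boundary had a known strand, 111 were nearest to a start and 35 to an end, a start share of 76.0% (68.5 to 82.2), whereas 49.0% of the bases in reach of such boundaries were nearest to a start. The value was higher for protein-coding genes, with 75 starts and 15 ends (83.3%, 74.3 to 89.6). Long noncoding genes had 35 starts and 18 ends (66.0%, 52.6 to 77.3), and the 2 intervals overlap. Counted by gene, 101 of 17274 coding starts had a summit within 2 kb (0.585%) and 19 of 17274 coding ends (0.11%), 5.32 times as many starts. For long noncoding genes the counts were 47 of 9520 starts (0.494%) and 28 of 9520 ends (0.294%), 1.68 times as many. The strand was not known for 72 of the 218 peaks, 30 of them at coding genes and 16 at tRNA genes.

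Summits at starts lay closer by the median than summits at ends, with intervals that overlap. The median distance was 417 bp (253 to 579) from a start and 728 bp (486 to 1430) from an end. At starts, 44 of 111 summits were within 250 bp (39.6%, 31.0 to 48.9), and 28 lay in the 250 bp just outside the gene against 16 in the first 250 bp inside. At ends, 9 of 35 were within 250 bp (25.7%, 14.2 to 42.1), an interval that overlaps that of the starts. An even spread over the 2 kb would place 12.5% there. Some peaks counted at an end also lay near a listed start: 9 of the 35 had one within 2 kb and 3 within 250 bp. At 4930554I06Rik, 4930526I15Rik and Gm31068 the nearest listed start was that of the same gene, and at the others it was that of another gene. Among the latter was the Tnrc18 start shown above, whose peak was nearest by gene coordinates to the end of Gm31365. The A630001O12Rik end peak lay 1462 bp from that end but 51 bp from the listed start of Gm31718, inside its promoter window.

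**Figure D3:**
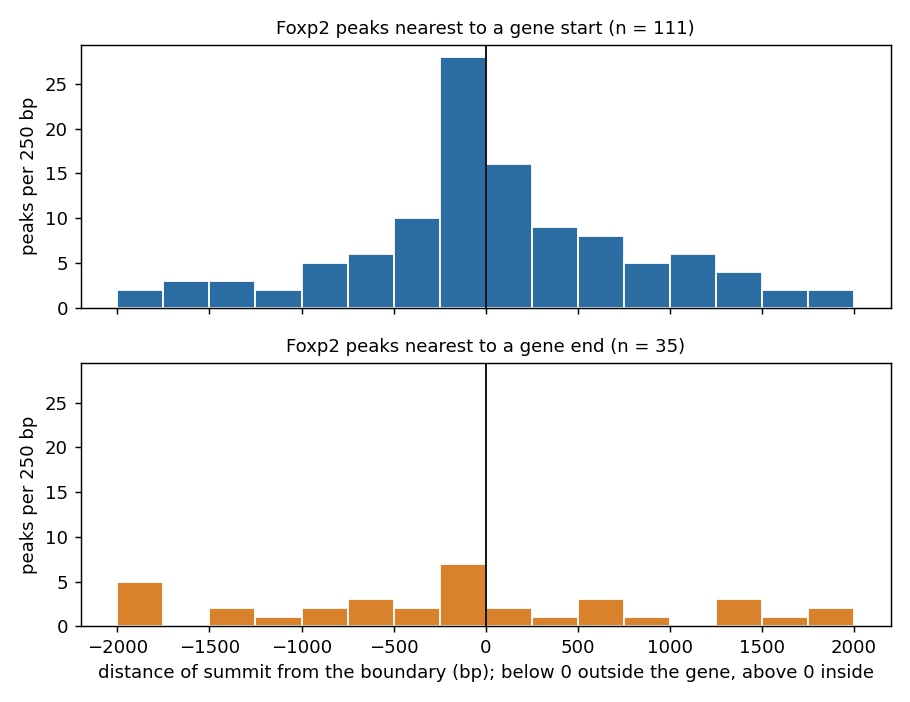
Number of Foxp2 peaks per 250 bp of distance between summit and boundary, for the 111 peaks nearest to a gene start (top) and the 35 nearest to a gene end (bottom); values below 0 lie outside the gene and values above 0 inside. The tallest bar, 28 peaks, is the 250 bp just outside gene starts.

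The strongest boundary peak was at a coding start, that of Foxp1, a forkhead repressor that can pair with Foxp2. It had a fold of 26.9 (95% counting interval 22.1 to 32.4), a pileup of 109 reads and a summit 225 bp outside the gene's outermost coordinate (chr6:99522546-99523413). The nearest Foxp1 start in the RefSeq promoter table was 1978 bp from this summit. The Btg1 peak (chr10:96616704-96616904) had a fold of 14.9 (11.4 to 19.1), and the Prcc peak (chr3:87885709-87885973) had a fold of 12.5 (9.31 to 16.3). At Foxp1, Btg1 and Prcc the input background was at its floor of 3.09, so these folds are set against the floor value. The same held for 5730596B20Rik, Gm33215, G630016G05Rik, Atf6b and Ccdc12, described below. Of all 218 boundary peaks, 126 (57.8%) had a background above the floor. Tspan8, which encodes a cell-surface tetraspanin, was the only gene with 3 boundary peaks. Their folds were 11.3 at 94 bp outside the outermost start (561 bp from the nearest start in the promoter table), 7.57 at 455 bp inside it and 6.84 at 1964 bp outside. The peak inside the gene lay 12 bp upstream of another listed Tspan8 start, and its summit fell within a 7-letter forkhead match.

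The peak at Slc25a45, a mitochondrial carrier gene, reached 11.2 (8.26 to 14.95), 253 bp inside the gene. Hexim1, which encodes an inhibitor of the elongation kinase P-TEFb, followed at 9.49 (7.28 to 12.2) and Iqgap3, a scaffold gene, at 9.28 (6.61 to 12.7). Mep1a, a metalloprotease gene of the kidney brush border named after its value was seen, had a fold of 9.01 (6.50 to 12.2) at 399 bp outside its outermost start and 1769 bp from the nearest start in the promoter table. The counting intervals from Slc25a45 to Mep1a overlap one another, so their order was not resolved at this depth.

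Meis2 and Cdc5l, 2 coding genes with strong boundary peaks, shared them with a noncoding neighbour that was nearer. The peak of fold 13.4 (10.2 to 17.5) at the homeobox gene Meis2 lay 822 bp inside its start and 510 bp outside the start of G630016G05Rik (chr2:116066509-116066859). The peak of fold 11.8 (9.23 to 14.9) lay 171 bp outside the Cdc5l start and 47 bp inside B230354K17Rik (chr17:45433832-45434269).

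Divergent pairs, in which 2 genes on opposite strands point away from each other with both starts within 2 kb of the summit, were in reach of 15 peaks. Their starts were up to 2529 bp apart (Ppm1n and Rtn2). How common such pairs are among all genes was not counted, so the 15 are a description only. Both genes were coding in 9 pairs, and 1 was coding and the other noncoding in 5. The summit lay between the starts in 3 of the 15 and beside them in the others. After Cdc5l with B230354K17Rik, the largest folds were at Cyb5d2 and Zzef1 (7.82, 5.39 to 10.99, with the summit between starts 311 bp apart), Gm40798 and Ctdsp2 (6.06), Polr2l and Tspan4 (5.77), and LOC105246106 and Hacd2 (5.62). Slc39a7 and Rxrb followed at 5.24, and Rxrb encodes a retinoid X receptor. The others were 1700016A09Rik and Mir7687 (5.13), Gm2716 and Cnep1r1 (5.07), Ids and Eola1 (5.01), Fam126b and Ndufb3 (4.90), Bfsp1 and Dstn (4.56), Ppm1n and Rtn2 (4.40), Exd1 and Chp1 (4.33), Sdhaf2 and Cpsf7 (4.08), and Etaa1 and Etaa1os (3.29). Among the 15 peaks, only that at Cdc5l had a fold of at least 10, beside 9.43% of all 944 peaks.

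A fold of at least 10 was found at 2 of the 15 coding ends. The end of Atf6b, which encodes an endoplasmic reticulum stress factor, had a fold of 12.7 (9.52 to 16.6) at 214 bp outside the gene (chr17:34655209-34655461), and Ccdc12 had 12.5 (9.31 to 16.3) at 1799 bp outside its end. Arhgap11a followed at 8.55 (5.995 to 11.8) and Ankrd1, a stress-induced ankyrin repeat gene, at 7.77 (5.51 to 10.7). The other 6 of the 10 largest folds at ends belonged to noncoding genes. They were Gm31365 at 12.2, 4930554I06Rik at 10.2, Mir6416 at 9.53, Gm46117 at 8.79, A630001O12Rik at 8.23 and Gm39252 at 8.09, of which the Gm31365 and A630001O12Rik peaks lay closer to a listed start. The median fold at the 18 ends of long noncoding genes was 5.87 (5.37 to 8.09), at their 35 starts 4.99 (4.60 to 6.90), at the 75 coding starts 4.90 (4.54 to 5.62) and at the 15 coding ends 4.64 (4.17 to 7.77), with overlapping intervals. A fold of at least 5 was found at 16 of the 18 long noncoding ends (88.9%, 67.2 to 96.9) and at 17 of their 35 starts (48.6%, 33.0 to 64.4), a contrast picked after its values were seen. Coding ends went the other way, with 5 of 15 (33.3%, 15.2 to 58.3), and coding starts had 36 of 75 (48.0%). The share was 51.4% over all 218 boundary peaks and 56.3% over the 726 other peaks.

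Noncoding starts included several of the largest folds. 5730596B20Rik had 16.4 (12.7 to 20.8), Gm33215 had 15.4 (11.9 to 19.7) and 1110028F18Rik had 14.5 (11.5 to 18.1), the last 1924 bp inside the gene. Gm51739 followed at 9.97 (7.49 to 13.01) and Gm30232 at 9.04. 4930554I06Rik had 1 peak 116 bp inside its start (11.2) and 1 at 926 bp outside its end (10.2). A630001O12Rik and 4930573C15Rik also had 2 peaks each, at folds of 8.23 and 3.09 and of 8.57 and 3.77. What these transcripts do is not known here.

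Boundary peaks with no known strand held further coding genes. Marchf2, a membrane ubiquitin ligase gene, had a fold of 12.6 (9.65 to 16.2), Scgb1a1, an airway secretoglobin gene, 12.5 (9.31 to 16.3), and Trib1, a pseudokinase gene, 11.2 (8.26 to 14.95) at 74 bp from its boundary. Stau2, an RNA-binding protein gene, had 10.2 and Pramel12 10.1. Scgb1a1 and Pramel12 were picked for their folds. The noncoding gene Gm30967 had 11.5 (8.47 to 15.2), Rnu5g, a U5 spliceosomal RNA gene, 11.2 at 463 bp, and 1700125G22Rik, which shares its peak with the Ect2 start, 10.01 (7.22 to 13.5). Whether these are starts or ends was not analysed here.

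**Figure D4:**
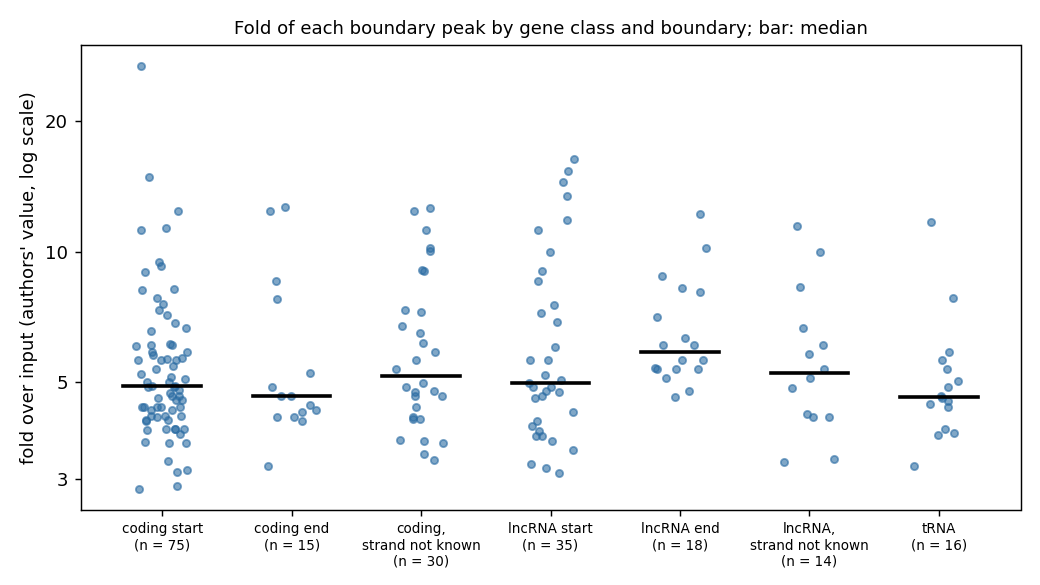
Fold over input (the authors' value, log scale) of each boundary peak, by class of the gene that owns the boundary and by start, end or unknown strand; the horizontal bar is the median. The medians lie between 4.62 (tRNA) and 5.87 (ends of long noncoding genes), and the highest point is the Foxp1 start at 26.9.

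By gene class, tRNA genes stood out. They owned the nearest boundary of 16 of 218 peaks (7.34%, 4.57 to 11.6), although only 0.327% of the bases within 2 kb of a boundary were nearest to a tRNA gene. Protein-coding genes owned 120 peaks (55.0%, 48.4 to 61.5) against 47.5% of bases and long noncoding genes 67 (30.7%, 24.99 to 37.1) against 29.2%. Pseudogenes owned 9 (4.13%, 2.19 to 7.66) against 17.7%, fewer than their share of bases. Small nuclear RNA and microRNA genes owned 3 each (1.38%), near their 1.30% and 1.20% of bases.

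Counted as genes with a boundary within 2 kb of any summit, 285 of all 49554 genes were in reach (0.575%). The share was 8.09% for tRNA genes (33 of 408), 0.707% for coding genes (153 of 21631), 0.646% for long noncoding genes (82 of 12697), 0.326% for microRNA genes (4 of 1228) and 0.299% for small nuclear RNA genes (3 of 1003). It was 0.0968% for pseudogenes (10 of 10328) and 0% for small nucleolar RNA genes (0 of 1340, upper limit 0.286%). Since tRNA genes lie in clusters, the 33 in reach belonged to only 17 peaks, and they are not independent of one another.

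**Figure D5:**
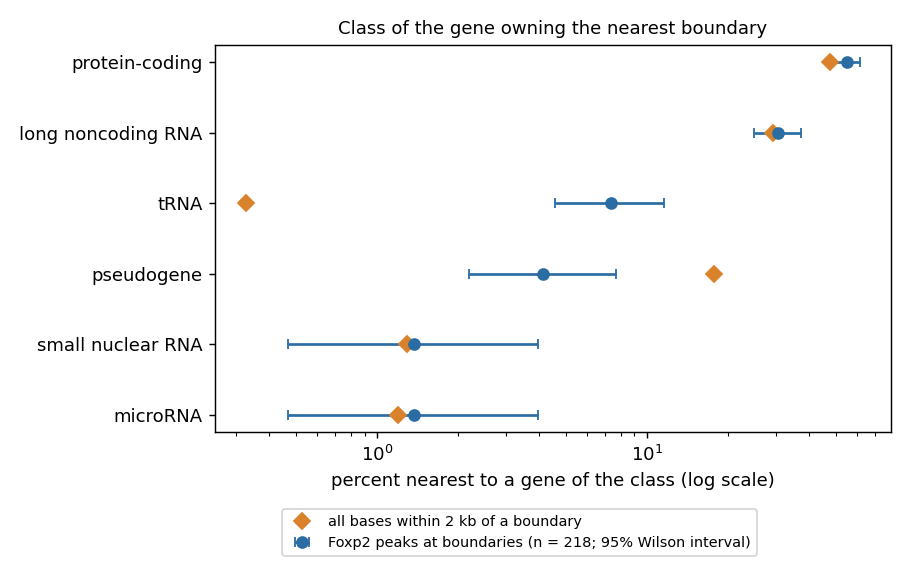
Percent of the 218 boundary peaks (circles, 95% Wilson interval) and of all bases within 2 kb of a gene boundary (diamonds) that were nearest to a gene of each class, on a log scale. tRNA genes are at 7.34% of peaks and 0.327% of bases, and pseudogenes at 4.13% and 17.7%.

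Most tRNA peaks had the summit in or close to the gene. tRNA genes are transcribed by RNA polymerase III from promoter elements inside the gene. The summit was within 50 bp of a tRNA boundary in 12 of 16 peaks (75.0%, 50.5 to 89.8) and inside the gene in 8, while 4 lay farther away, between 161 and 503 bp. For all boundary peaks, 14.7% (10.6 to 19.99) were within 50 bp. Their folds were modest. The strongest, at the leucine tRNA gene n-TLcag10 on chromosome 13, reached 11.7 (8.68 to 15.5), with its summit 503 bp away from it, and n-TRccg1, an arginine tRNA gene on chromosome 11, had 7.83 (5.63 to 10.6) with the summit 30 bp inside.

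The other 14 tRNA folds ran from 5.86 at n-TIaat6 to 3.21 at n-TFgaa3, and the median of the 16 was 4.62 (3.91 to 5.62). The genes carried 10 amino acids and lay on 7 chromosomes, with 5 of the 16 on chromosome 13. Summits lay 3 bp from the boundary of n-THgtg4 (3.79), 4 bp from n-TLaag7 (4.40) and 9 bp from n-TAagc15 (4.53) and n-TRcct3 (3.83). The n-TKctt27 peak (5.62, summit 21 bp inside) had 4 tRNA genes within 2 kb and also the gene Hes7, and that at n-TEttc4 (4.88) had the ETS factor gene Elf1 in reach. Some tRNA peaks also lay within 2 kb of a listed start of another gene. The n-TLcaa3 summit was 46 bp from the Gm39827 start, inside its promoter window. The others were n-TTcgt3 (Gm11205, 120 bp), n-TAagc15 (Agbl5, 274 bp), n-TFgaa3 (Ndufs7, 390 bp), n-TEttc4 (Wbp4, 437 bp) and n-THgtg4 (Gm39918, 729 bp). Input was above its floor at 9 of the 16 (56.3%, 33.2 to 76.9), about as in the other boundary peaks (57.9%).

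Some other summits lay almost on a boundary. Among peaks with a fold of at least 5 and a summit within 50 bp, not yet described, were Gm32540 (6 bp, 5.19), Ddx18, an RNA helicase gene (22 bp, 5.08), n-TTcgt3 (31 bp, 5.05), Ids, which encodes a lysosomal sulfatase (37 bp, 5.01), Ifi204, an interferon-inducible gene (37 bp, 6.74), 9130015A21Rik (43 bp, 6.11) and B230208H11Rik (50 bp, 5.37). Mir7687 had a peak 12 bp from its start (5.13, 3.71 to 6.91) and Mir6416 one 49 bp from its end (9.53, 6.81 to 12.98). The boundary itself lay inside the called peak for 59 of the 218.

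The third microRNA peak (chr6:31061875-31062170) reached 4.76 (2.999 to 7.24), with the summit 649 bp from the end of Mir29a and 1012 bp from Mir29b-1. The miR-29 family is known to target collagen and other matrix transcripts. Its mature 3p sequences from RefSeq (GRCm38.p6, minus strand) are shown with the seed, bases 2 to 8, in capitals, because both genes were in reach of the same peak and share that seed.

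mmu-miR-29a-3p: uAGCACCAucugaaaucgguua

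mmu-miR-29b-3p: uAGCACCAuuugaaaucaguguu

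Cell cycle arrest and p53 target genes, taken as 1 list, had 3 of 42 members in reach (7.14%, 2.46 to 19.01). The share of all coding genes was 0.707%, and all 3 were at starts. They were Btg1 at 14.9, the proapoptotic p53 target Bbc3 at 8.23 (5.74 to 11.5), and the atypical cyclin gene Ccng2 at 5.13 (3.44 to 7.38). The Bbc3 summit was 1716 bp inside the outermost start and 147 bp upstream of another listed start, with a 7-letter forkhead match 14 bp away. The Ccng2 summit lay 131 bp upstream of its start and its window had no 7-letter match. These counts are small, and the lists were drawn up with earlier results of these data known, so they are not independent evidence of a preference.

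Transcription factor and chromatin genes had 7 of 84 in reach (8.33%, 4.10 to 16.2), again beside 0.707% of all coding genes and with the same limit on how the list was drawn up. Beside Foxp1, Meis2 and Atf6b they included Fosl2, an AP-1 subunit gene (5.02, 1501 bp outside its start), Foxo3, a forkhead factor of stress response (4.73, 1252 bp outside), and Bach1, a repressor of antioxidant genes (4.15, 1049 bp inside). RNA processing genes had 4 of 43 (9.30%, 3.68 to 21.6), with the same background and limit. They were Prcc, Cdc5l, Stau2, and the helicase gene Ddx5 at 4.90, whose peak was nearer to the start of Polg2.

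The other lists had 1 member in reach or none. Cell cycle drivers had 1 of 35, the replicative helicase gene Mcm7 (6.13, 4.44 to 8.27), whose peak was nearer to Ap4m1. Mesenchymal genes had 1 of 32, the follistatin-like gene Fstl1 (5.62, 1179 bp inside its start). Protein folding genes had 1 of 28 (Atf6b), ubiquitin ligases 1 of 38 (Marchf2), growth signalling genes 1 of 37 (Trib1) and mitochondrial enzymes and carriers 1 of 35 (Slc25a45). No member was in reach among 46 TGF-beta and Wnt pathway genes (upper limit 7.71%), 37 kidney tubule genes (9.41%), 28 epithelial junction genes (12.1%), 18 immune markers (17.6%), 13 endothelial markers (22.8%) or 16 fibroblast and pericyte markers (19.4%). With lists of this size, the interval around a count of 0 included the 0.707% of all coding genes. Mep1a, named above, was not on the kidney tubule list, so the count of 0 covers only the genes listed.

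Coding starts of lower fold, named after their values were seen, included several genes of general gene expression. Wdr18, a ribosome biogenesis gene, had 7.33 (4.99 to 10.4), Ing3, a NuA4 acetyltransferase subunit, 6.67, Kdm3a, a histone demethylase, 5.37, Med17, a Mediator subunit, 4.88, H3f3a, which encodes histone H3.3, 4.40, Kmt2a 3.87 and Trrap, a scaffold of acetyltransferase complexes, 2.88. The Ing3 summit was 5 bp from a 7-letter forkhead match, and no such match was in the Med17 or Kmt2a windows that held a summit. Whether such genes are over-represented was not tested.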

How the data were processed

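Peaks of 1 Foxp2 ChIP library from activated C1.1 cells were analysed; the input entered only as the peak caller's control. MACS2 and bcl2fastq on mm10 are named in the submitters' processing notes; the aligner, any read filter and all versions were not stated there. The fold of each peak is the deposited ratio of ChIP pileup to control background at the summit, taken here as having 1 added to both, which understates the change where the background is low. The −log10 p and −log10 q are the authors' deposited values, and the deposited score was not used.

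Whole pileups and backgrounds were recovered from fold and −log10 p (largest misfit 2.05e-05, next best at least 0.175); the background floor was 3.09. Depth is unknown. Fold intervals are exact 95% Poisson intervals of the pileup, and shares carry 95% Wilson intervals over peaks, genes or windows. Both cover counting error only, since reads are not independent molecules, genes in clusters share peaks and windows can overlap. Distances ran from the summit to gene boundaries of RefSeq GRCm38.p6. Strand and promoter sequence came from RefSeq tables (GRCm38.p6) and motifs were exact matches. Bases were counted between the first and last gene boundary of each chromosome, assembly gaps included. Functions were checked on simulated peaks. Python 3.11.15, numpy 2.4.6, pandas 2.3.3 and scipy 1.17.1 were used.

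Named genes were the 15 starts, 10 ends and 10 noncoding genes of largest fold, summits within 50 bp of a boundary with a fold of at least 5, genes with several peaks, divergent pairs and members of 15 gene lists; 1 list member in reach is not reported here. Sequences were the windows of the 8 largest folds, 1 per summit. Members and lists were chosen with earlier results of these data known.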

Additional observations from a re-analysis of the deposited data

How the results depend on the processing

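No paired analysis was possible because there is 1 ChIP library and 1 input library. The 6 results were recomputed under each of 6 alternatives, with 35 values in all; the coding share with protein-coding genes only was left out, since it is 100% by construction. Of these, 25 stayed within the interval or 1.5 times of the reported value and 10 moved. The share of summits at a boundary was 17.4% within 1 kb, 13.03% within 500 bp and 14.2% with protein-coding genes only, each a narrower target. The start share among peaks with known strand was 84% within 500 bp and 83.2% with protein-coding genes only, and stayed between 71.7% and 80.6% elsewhere, so starts outnumbered ends under all 6. The median distance was 227.5 bp within 1 kb, 140 bp within 500 bp and 268.5 bp measured from the peak edge. The median fold was 5.86 with −log10 q of at least 5, which removes weak peaks. With protein-coding genes only, 15 peaks had a fold of at least 10. The motif counts rest on 43 summits, and peaks on chromosome 18 had no strand or sequence.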

Other observations

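The share of peaks at a boundary differed in value between chromosomes. On chromosome 9 it was 9 of 20 peaks (45.0%, Wilson interval 25.8 to 65.8), and on chromosome 15 it was 8 of 58 (13.8%, 7.16 to 24.9). These chromosomes were named after their values were seen, and the difference was not tested. The 9 peaks nearest to pseudogenes had a median fold of 5.86 (3.91 to 6.35), with the largest, 9.28, at Gm12608.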
